A study of Homo sapiens with 5 samples.

Results

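Alpha-arrestin genes and the glucose-sensing factors that act on them were examined in C4-2B, a castration-resistant prostate cancer cell line. The set holds 10 of the 58812 genes in the count table: TXNIP, ARRDC1, ARRDC2, ARRDC3, ARRDC4 and ARRDC5, the factors MLXIP, MLXIPL and MLX, and thioredoxin itself, TXN. They were taken by name as a gene family, and the family was chosen from earlier results of these libraries, in which TXNIP and ARRDC4 were high in the mutant clones. Their differences between mutant and parental cells are therefore given as a description, with no p-value, and nothing is read from how many of them a genome-wide fit called. The 5 RNA sequencing libraries were 2 of parental C4-2B, 2 of a clone named C4K13A and 1 of a clone named C5K13A. Both clones carry HOXB13 with lysine 13, an acetylation site, changed to alanine (K13A). The gene encodes a homeobox protein that marks prostate epithelium. All libraries came from cells grown in C4-2B media, whose glucose content is not given in the sources used here. Each mutant line is 1 clone, so the substitution and other differences of a clone from the parental cells cannot be told apart.

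Alpha-arrestins are adaptor proteins with an arrestin fold. Most carry proline-rich motifs that recruit ubiquitin ligases of the NEDD4 family to membrane cargo. TXNIP also binds thioredoxin, and it promotes the removal of glucose transporters from the cell surface. The transcription factors MondoA (MLXIP) and ChREBP (MLXIPL) pair with MLX, respond to glucose 6-phosphate, and bind carbohydrate response elements, in which a pair of E-box-like sites is separated by a short spacer. TXNIP and ARRDC4 are among the best known MondoA targets.

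The promoters of these 2 genes are shown because the gene counts of TXNIP and ARRDC4 differed most within the family. Each line gives the 250 bases before the RefSeq transcript start, 5′ to 3′ on the gene's strand (GRCh38.p14). The first is chr1:145996580-145996829, minus strand, and the second chr15:97960453-97960702, plus strand. Capitals mark E-box-like sites (CACGNG on either strand, which includes the full E-box CACGTG) and CCAAT boxes on either strand, the letters bound by the factor NF-Y.
TXNIP: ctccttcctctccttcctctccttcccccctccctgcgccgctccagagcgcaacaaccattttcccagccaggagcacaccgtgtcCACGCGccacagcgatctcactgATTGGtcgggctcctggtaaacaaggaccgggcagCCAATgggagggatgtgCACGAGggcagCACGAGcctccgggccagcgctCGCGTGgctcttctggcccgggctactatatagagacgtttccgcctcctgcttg
ARRDC4: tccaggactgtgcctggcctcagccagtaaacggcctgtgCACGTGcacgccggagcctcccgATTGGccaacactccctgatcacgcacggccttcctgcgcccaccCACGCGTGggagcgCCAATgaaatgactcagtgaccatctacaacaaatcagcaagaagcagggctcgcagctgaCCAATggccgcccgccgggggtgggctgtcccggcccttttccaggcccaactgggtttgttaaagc

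The TXNIP window held 2 E-box-like sites in the same orientation with 5 bases between them, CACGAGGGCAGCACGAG, from 88 to 72 bases before the start. A CCAAT box lay upstream of that pair, from 105 to 101 bases before the start. The letters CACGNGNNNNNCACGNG were found on either strand in 20 of 35116 RefSeq windows of the same length (250 bases before to 50 after a start), which is 0.0570%. Of the set's genes that had a window, only TXNIP had that pair. A looser pair, CNCGNGNNNNNCNCGNG, occurred in 2.22% of windows and was also present near ARRDC2, as CCCGCGTGCGTCACGGG from 24 to 8 bases before one of its starts. The ARRDC4 window held no pair by either pattern. It had a full E-box from 210 to 205 bases before the start, an overlapping pair of E-box-like sites on opposite strands from 142 to 135, and 3 CCAAT boxes. Full E-boxes were present in 7.26% of windows, single E-box-like sites in 30.5% and CCAAT boxes in 34.6%. Among the set's other genes with a window, only MLX had a full E-box, from 50 to 45 bases before its start. No window of ARRDC5 was in the table. These matches describe letters and do not show binding.

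**Figure D1:**
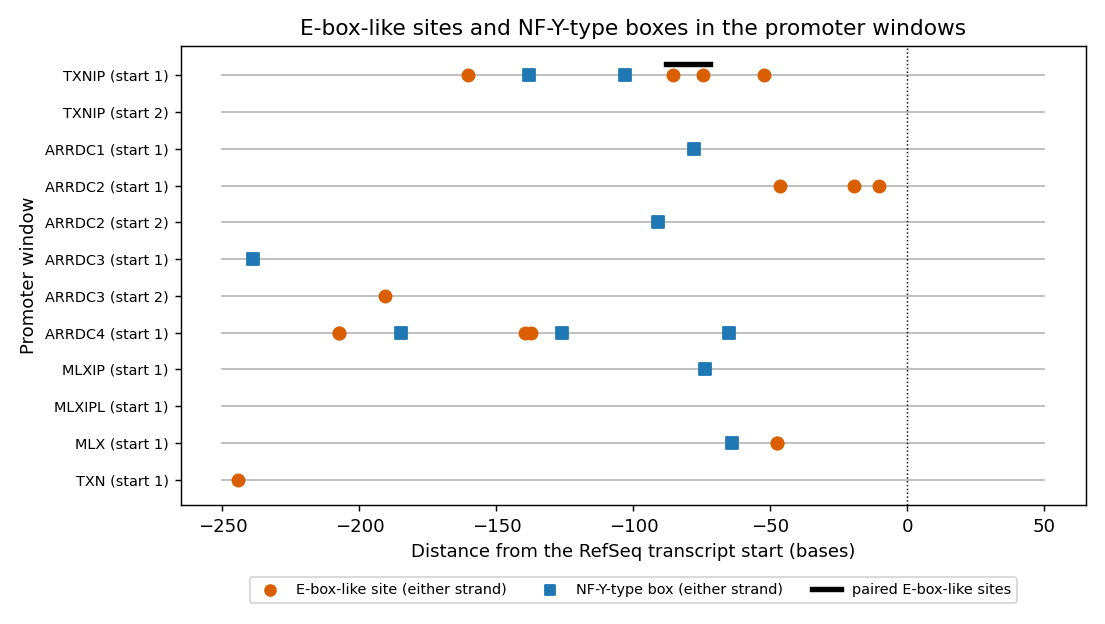
Position of E-box-like sites (circles), NF-Y-type CCAAT boxes (squares) and paired E-box-like sites (bar) in RefSeq promoter windows of 9 genes, in bases from the transcript start; genes with 2 annotated starts have 2 rows. The bar appears in the TXNIP window alone, from 88 to 72 bases before the start, and the ARRDC4 window has 3 squares.

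Of the 20 genes with the direct pair near a start, 16 passed the expression filter, and they included GFPT1, the entry enzyme of hexosamine synthesis. Their median fold change in the K13A libraries was 0.020 on the log2 scale, beside 0.019 over the 11555 tested genes with any window. Over all 20649 genes tested, with or without a window, the median was -0.0047. TXNIP was chosen from this contrast and the search followed the kind of element known at its promoter, so its own value says nothing about the pair. The other genes ran from -0.94 to 0.32.

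The libraries held 43190276 to 57282373 counts, with 27337 to 30647 genes detected in each. HOXB13 was transcribed at 338 to 448 CPM (counts scaled to a common library total with TMM factors) in the 5 libraries, which cannot show a point substitution. All 10 prostate luminal markers examined were detected, with a summed level of 5442 to 7532 CPM in parental and 5626 to 6457 CPM in K13A libraries. Summed levels were at most 0.374 CPM for 6 leukocyte markers (CD3E at 0 in every library), 5.73 CPM for 5 endothelial and 9.82 CPM for 6 fibroblast markers (LUM at 0). The fibroblast sum was 9.03 to 9.82 CPM in parental and 6.82 to 9.02 CPM in K13A libraries. The endothelial sum, mostly VWF, was 2.66 to 4.34 CPM in K13A libraries and at least 5.61 CPM in parental ones. Muscle markers, almost all MB, summed to 47.8 to 78.7 CPM. The summed level of 4 hepatocyte markers moved with the groups, from 3.54 and 9.95 CPM in parental to between 12.7 and 77.1 CPM in K13A libraries. TTR had 1.60 and 8.95 CPM in parental, 11.5 and 75.9 in C4K13A and 61.6 in C5K13A libraries. It was most of the sum in every library but parental library 1. ALB was at most 0.185 CPM, and the part of these lists in the results was not tested. Residual mitochondrial ribosomal RNA was low in parental library 1 and C4K13A library 1 (at most 65.4 CPM) and higher in the other 3 libraries (353 to 1723 CPM). In both the parental and the C4K13A pair, the library with more of it also had more TTR. The part of this in the TTR difference was not tested. The labels do not name separate cultures for the replicates. SEs and p-values therefore cover library-to-library spread alone, possibly only technical. In bulk RNA, fewer cells expressing a gene and less RNA per cell cannot be told apart.

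TXNIP (ENSG00000265972; chromosome 1, 145992435 to 145996600, minus strand, by GENCODE v29 on GRCh38) was scarce in parental cells and abundant in both clones. It had 1.82 and 4.96 CPM in parental cells, against 58.4 and 85.8 in C4K13A and 106 in C5K13A. The groups did not overlap, and the lowest K13A library lay 11.8-fold above the highest parental one. The parental values rest on 108 and 252 counts, so counting error is small beside the 2.72-fold gap between those 2 libraries. The fitted difference was 4.63 ± 0.48 (log2 fold change ± SE, n = 2 parental and 3 K13A libraries), a 24.7-fold higher level. This was rank 11 from the top among 20649 genes. Without parental library 2 the value was 5.52, and over 14 alternative fits it ran from 4.07 to 5.52. Between the 2 libraries low in residual ribosomal RNA the ratio was 32.1-fold, and among the other 3 it was 19.4-fold. In both the parental and the C4K13A pair, the library with more residual ribosomal RNA had more TXNIP; the part of this in the TXNIP difference was not tested beyond these ratios and a fit with that split as a covariate (4.57 ± 0.25).

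ARRDC4 (ENSG00000140450; chromosome 15, 97960698 to 97973838, plus strand), the closest relative of TXNIP in this set by its described action on glucose uptake, was also higher in both clones, but by less. It had 3.72 and 4.64 CPM in parental cells, against 15.5 and 18.3 in C4K13A and 15.8 in C5K13A. Every K13A library was at least 3.33-fold above both parental ones, and within each group the values lay close together. The fitted difference was 1.98 ± 0.22, a 3.95-fold higher level, with 1.83 to 2.15 over 14 alternative fits. ARRDC4 was 4.15-fold higher between the libraries low in residual ribosomal RNA and 3.67-fold higher among the others.

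The remaining alpha-arrestins stayed within a narrow range. ARRDC1 (ENSG00000197070; chromosome 9, 137605654 to 137615360, plus strand), which drives budding of vesicles from the plasma membrane, had 86.2 and 79.5 CPM in parental cells, against 84.6 and 84.5 in C4K13A and 79.1 in C5K13A. These overlapped, and the fitted difference was -0.0012 ± 0.14. ARRDC3 (ENSG00000113369; chromosome 5, 91368724 to 91383359, minus strand), an adaptor for adrenergic receptors and integrins, had 32.7 and 33.5, 28.6 and 31.7, and 28.7 CPM in the same order. All 3 K13A libraries were thus slightly below both parental ones (-0.16 ± 0.15), and the nearest pair differed 1.03-fold. ARRDC2 (ENSG00000105643; chromosome 19, 18001132 to 18014102, plus strand), a less studied family member, had 16.5 and 14.6 CPM in parental cells, against 13.7 and 13.9 in C4K13A and 12.4 in C5K13A. It too lay lower in each K13A library, by 1.05-fold at the nearest pair (-0.22 ± 0.18). ARRDC5 (ENSG00000205784; chromosome 19, 4890437 to 4902867, minus strand) had 0 counts in every library, which allows at most 0.0524 to 0.0695 CPM depending on the library (3 counts, counting error only). It was the 1 gene of the 10 that did not pass the expression filter.

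**Figure D2:**
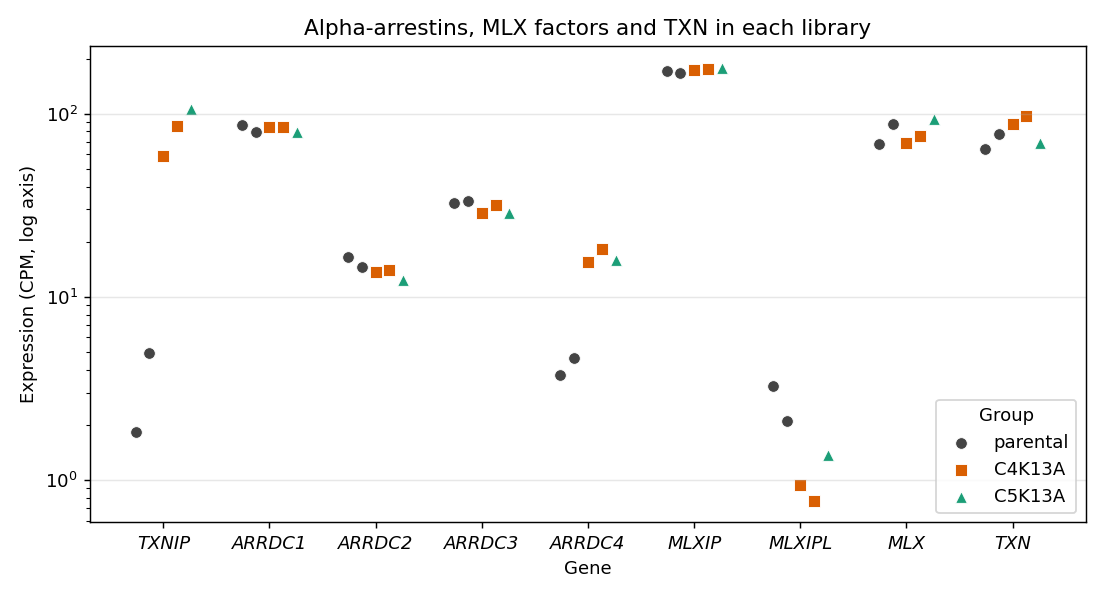
Expression of the 9 detected genes in each library, in CPM on a log axis; circles are parental, squares C4K13A and triangles C5K13A libraries, 1 point a library. TXNIP and ARRDC4 points of the clones lie far above the parental ones, MLXIPL points lie below, and the other genes vary little.

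Among the factors that act on TXNIP and ARRDC4, the MondoA gene MLXIP (ENSG00000175727; chromosome 12, 122078722 to 122147347, plus strand) was abundant and nearly constant. It had 172 and 167 CPM in parental cells, against 174 and 176 in C4K13A and 178 in C5K13A (0.06 ± 0.14). Although the groups did not overlap, the nearest pair differed by only 1.01-fold. MLX (ENSG00000108788; chromosome 17, 42567068 to 42573239, plus strand), the shared partner, had 68.5 and 88.3 CPM in parental cells, against 69.1 and 75.5 in C4K13A and 93.4 in C5K13A. These values overlapped (0.02 ± 0.19), and the sign was positive in 9 of 14 alternative fits.

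MLXIPL (ENSG00000009950; chromosome 7, 73593194 to 73624543, minus strand), the ChREBP gene, was scarce and lower in the clones. It had 3.27 and 2.09 CPM in parental cells, against 0.938 and 0.771 in C4K13A and 1.37 in C5K13A. The highest K13A library was 1.53-fold below the lowest parental one. These levels rest on 33 to 194 counts a library, and the exact 95% counting interval in C5K13A alone was 1.04 to 1.77 CPM. The fitted difference was -1.39 ± 0.38, with -1.67 to -1.02 over 13 alternative fits. The ratio was 3.49-fold lower between the libraries low in residual ribosomal RNA and 1.95-fold lower among the others. Per kilobase of exon, MLXIP exceeded MLXIPL 18.2- and 27.7-fold in parental, 64.2- and 79.1-fold in C4K13A and 45.2-fold in C5K13A libraries. MLXIP was thus the main transcript of the pair in every library.

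TXN (ENSG00000136810; chromosome 9, 110243811 to 110256640, minus strand), the small redox protein that TXNIP binds, had 63.9 and 77.2 CPM in parental cells, against 88.3 and 96.8 in C4K13A and 69.1 in C5K13A. The C5K13A value lay between the parental ones, so the groups overlapped (0.26 ± 0.19). Per kilobase of exon, TXNIP was present at 0.00897 and 0.0202 of the level of TXN in the parental libraries. The same ratio was 0.208 and 0.279 in C4K13A and 0.485 in C5K13A libraries. Each parental ratio was therefore below each K13A ratio, and TXN exceeded TXNIP in all 5 libraries.

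In the comparison of all K13A with parental libraries, edgeR's quasi-likelihood test with Benjamini-Hochberg adjustment called 2 of the 9 genes that passed the filter, TXNIP and ARRDC4. Over all genes 0.203% were called. The 2 genes were chosen from this contrast, so the count carries no evidence of its own. It was 0 without parental library 1 and without C4K13A library 2, and 1 (TXNIP) without parental library 2 and without C4K13A library 1. It was also 0 with the C4K13A libraries summed, so that each clone counted once. All 3 K13A libraries lay above both parental ones for 3 of the 9 genes, beside 13.6% of all genes tested, and below both for 3, beside 14.9%. The median of the 9 fold changes was 0.02.

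The 2 clones are compared with the same parental libraries, so their values are given side by side. TXNIP was 4.41 ± 0.46 higher in C4K13A and 4.98 ± 0.50 higher in C5K13A on the log2 scale. These values were 3.86 and 4.42 without parental library 1, and 5.30 and 5.87 without parental library 2. For ARRDC4 the differences were 2.01 ± 0.24 and 1.92 ± 0.27. MLXIPL was at -1.64 ± 0.41 and -0.96 ± 0.51. The genes were chosen from these same libraries, so the counts of calls that follow carry no evidence of their own. In C4K13A 2 of the 9 genes were called (TXNIP and ARRDC4), where 0.699% of all genes were. In C5K13A, with 1 library, 1 was called (TXNIP), where 0.0484% were. The C4K13A count was 3 without parental library 2, with MLXIPL added. The C5K13A count was 2 without parental library 2, C4K13A library 1 or C4K13A library 2, with ARRDC4 added each time.

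**Figure D3:**
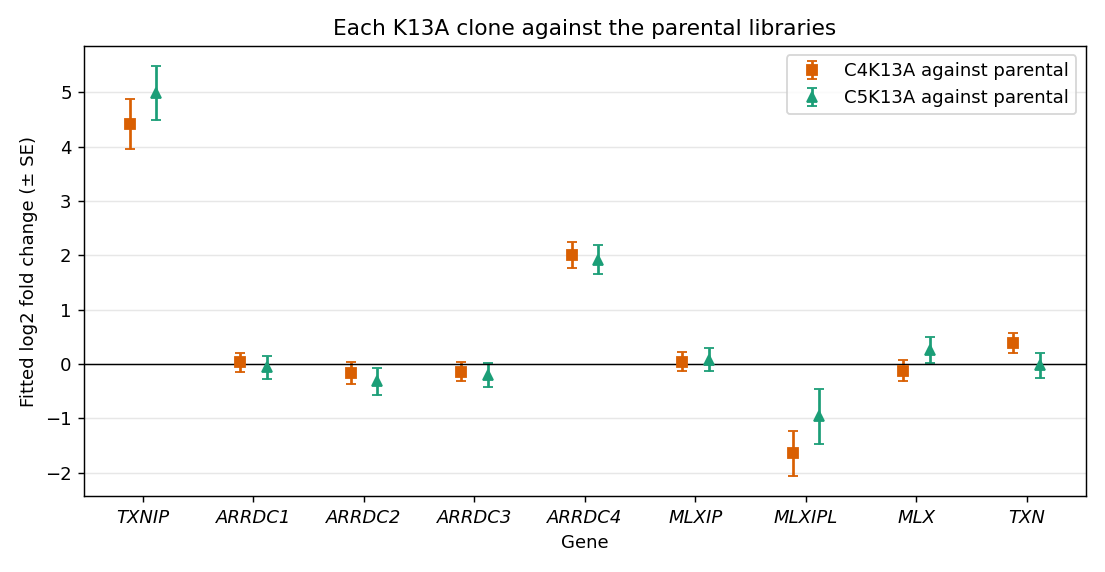
Fitted log2 fold change of each gene in C4K13A (squares) and C5K13A (triangles) against the 2 parental libraries, with SE bars. TXNIP lies above 4 and ARRDC4 near 2 in both clones, MLXIPL lies below 0, and the bars of the other genes lie near 0.

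The difference between the clones was tested, but for TXNIP and ARRDC4 this test is not independent of the choice of genes. They were chosen from all K13A against parental libraries, a fit in which a difference between clones counts as spread. Genes that differ between the clones are less likely to stand out there. The lack of a call for TXNIP and ARRDC4 between the clones is therefore given as a description. By edgeR's quasi-likelihood test 0 of the 9 genes were called between C5K13A and C4K13A, with 0 at an unadjusted p under 0.05, 0 by DESeq2 and 0 by limma-voom. At an unadjusted p under 0.05 were 6.42% of all genes, so 0 of 9 is near the background. Over all genes the 3 tools called 0.066%, 0.8% and 0.0%. TXNIP was 0.57 ± 0.47 higher in C5K13A, with a 95% interval of -0.51 to 1.65 (adjusted p = 0.945). ARRDC4 differed by -0.09 ± 0.28, and its interval ran from -0.73 to 0.56 (adjusted p = 0.999). The smallest p among the 9 belonged to TXN, at -0.41 ± 0.23 (-0.94 to 0.11, adjusted p = 0.846), followed by MLX at 0.38 ± 0.23 (-0.16 to 0.92, adjusted p = 0.883). MLXIPL was at 0.68 ± 0.49 (-0.46 to 1.82, adjusted p = 0.920). The tests take the spread of the 1 C5K13A library to be that of the other 4, and intervals this wide do not show that the clones are alike.

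The order of the genes by level per kilobase of exon changed with TXNIP. In parental cells TXN came first (mean 61.8 CPM per kilobase), then ARRDC1 (21.7), MLX (18.4), MLXIP (12.2), ARRDC3 (6.71), ARRDC2 (3.36), ARRDC4 (1.03), TXNIP (0.935) and MLXIPL (0.556). TXNIP overlapped both of its neighbours there, with 0.502 and 1.37 beside 0.915 and 1.14 for ARRDC4 and 0.679 and 0.433 for MLXIPL. In K13A libraries the mean of TXNIP, 23.0 CPM per kilobase, came after that of TXN. Its 16.1, 23.7 and 29.3 overlapped the 20.7 to 22.2 of ARRDC1 and the 16.2 to 21.9 of MLX. With the longest annotated transcript in place of all exons, MLX (30.3) stood above ARRDC1 (26.0) and TXNIP (1.16) above ARRDC4 (1.03) in parental cells. In K13A libraries MLX (30.7) then stood above TXNIP (28.5), which stood above ARRDC1 (26.0).

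The alpha-arrestin transcript pool, summed per kilobase over the 5 detected family members, was 34.2 and 33.2 CPM per kilobase in parental, 50.8 and 59.7 in C4K13A and 62.4 in C5K13A libraries. ARRDC1 made up at least 62.6% of it in both parental and between 33.2% and 43.6% in K13A libraries. The share of TXNIP was 1.47% and 4.11% in parental, 31.7% and 39.6% in C4K13A and 47.0% in C5K13A libraries. ARRDC4 went from 2.68% and 3.43% to between 6.21% and 7.53%.

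**Figure D4:**
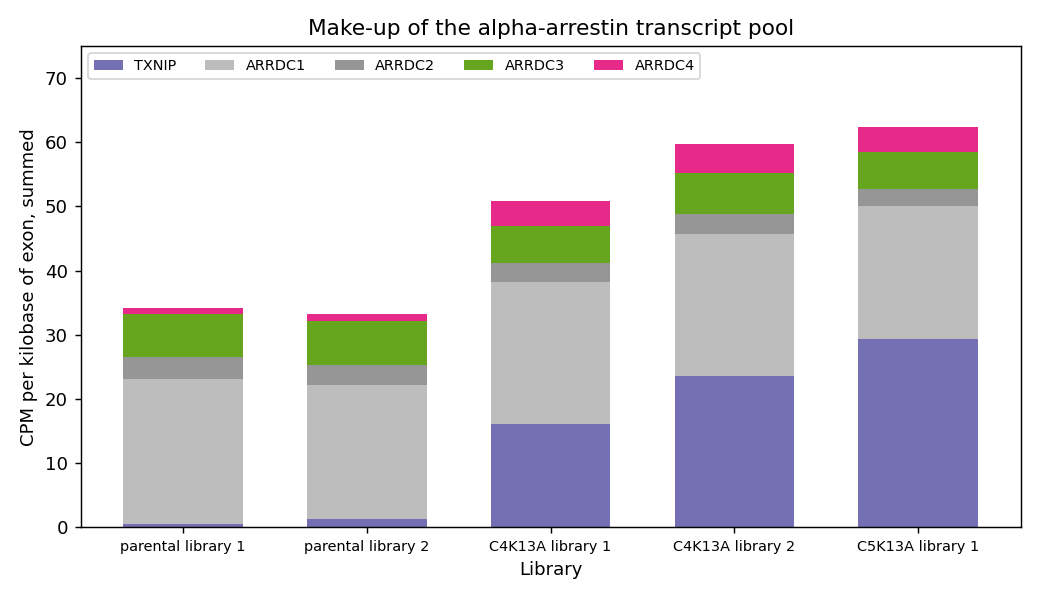
Level of the 5 detected alpha-arrestin genes in each library, stacked, in CPM per kilobase of exon. The TXNIP segment is thin in both parental libraries and reaches 29.3 in C5K13A, while the ARRDC1 segment stays between 20.7 and 22.6.

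None of the measured chromosomal neighbours of TXNIP had a fold change near its own. Within 250 kb of TXNIP, 12 protein-coding genes passed the filter. Their fold changes ran from -0.52 to 0.42 with a median of 0.02. None was called by edgeR, with 0 at an unadjusted p under 0.05, 0 by DESeq2 and 0 by limma-voom. The nearest was POLR3GL, a subunit gene of RNA polymerase III 13587 bases away. It had 6.08 and 7.24 CPM in parental cells, against 8.06 and 10.02 in C4K13A and 8.74 in C5K13A. All K13A libraries of POLR3GL thus lay above both parental ones. Its fold change of 0.42 was the highest of the 12 (adjusted p = 0.5204 by edgeR). Around ARRDC4 no protein-coding gene within 250 kb passed the filter. Of the 12 around MLXIPL, 0 were called by edgeR and limma-voom and 1 by DESeq2 (1 at an unadjusted p under 0.05), with fold changes from -1.64 to 0.21. The lowest was VPS37D, which encodes a subunit of an endosomal sorting complex and lies 43282 bases away. It had 254 and 104 counts in parental and 41, 38 and 57 counts in the K13A libraries (adjusted p = 0.229 by edgeR), and was at -1.01 without parental library 1. Because the strand setting of the counting is not given, reads of overlapping genes could not be separated. ARRDC1 overlaps ARRDC1-AS1, which had 459 to 889 counts a library, and MLX overlaps PSMC3IP, which had 380 to 627.

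The genes whose profile over the 5 libraries was nearest to that of TXNIP were found by the root mean square difference of log2 CPM, after centring each gene on its own mean. Among the 5 nearest were TTR (1.02), the thyroid hormone carrier, SIGLEC9 (1.07), LINGO1 (1.07) and CLEC3B (1.21). TTR had 1.60 and 8.95 CPM in parental cells, against 11.5 and 75.9 in C4K13A and 61.6 in C5K13A. ARRDC4, with its smaller fold, was 1.36 from TXNIP. Nearest to ARRDC4 were SERPIND1 (0.21), a serine protease inhibitor gene, XG (0.23), TENT5C (0.23), a poly(A) polymerase gene, RAB27B (0.25), a Rab protein of secretory vesicles, and PTX4 (0.26), a pentraxin. TENT5C had 8.04 and 7.79 CPM in parental cells, against 21.4 and 32.1 in C4K13A and 20.7 in C5K13A. SERPIND1 and PTX4 were scarce in parental cells, at 0.438 and 0.826 CPM and at 0.691 and 0.866 CPM. The 0.5 CPM added before taking logs reduces differences at such levels. The fitted difference of PTX4 (2.81 ± 0.34) was larger than that of ARRDC4. With 5 libraries such likeness is a description only.

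Related genes were examined in 9 lists with 116 genes, of which 96 passed the filter. By edgeR 0 of the 96 were called in K13A against parental libraries, where 0.203% of all genes were. At an unadjusted p under 0.05 there were 17 of the 96 (17.7%), beside 11.0% of all genes tested. DESeq2 called 5, where it called 2.69% of all genes, and limma-voom 0, where it called 0.0533%. Without parental library 2 edgeR called 1, IRS2. The median fold change of the 96 genes was -0.06. From each list the members with the smallest p are named.

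Genes named as targets of carbohydrate response elements, mostly from liver, had negative fold changes more often than positive ones. Of 14 tested 4 had positive and 10 negative fold changes, with a median of -0.20, and 0 were called by edgeR. FGF21, a hepatic hormone gene, had 2.73 and 4.96 CPM in parental cells, against 0.599 and 0.117 in C4K13A and 1.13 in C5K13A (-2.64 ± 0.70, adjusted p = 0.239 by edgeR), and was at -3.39 without the C5K13A library. GCKR, the regulator of glucokinase, had 2 counts over both parental libraries and 58 over the K13A ones, a ratio of 23.6 with an exact 95% counting interval of 6.25 to 199.5 (adjusted p = 0.241 by edgeR). G6PC had 0 counts in every library. DESeq2 called FGF21 lower, and GCKR and THRSP, a lipogenic regulator gene, higher.

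In the MYC-MAX-MLX network, whose members compete for E-boxes and for shared partners, 3 of 9 tested genes had positive and 6 negative fold changes (median -0.10), with 0 called. MNT, a repressor that pairs with MAX and MLX, had 79.9 and 59.2 CPM in parental cells, against 45.4 and 40.4 in C4K13A and 52.7 in C5K13A (-0.59 ± 0.19, adjusted p = 0.311 by edgeR). MXD4, a relative with the same kind of action, had 121 and 118, 140 and 193, and 169 CPM (0.48 ± 0.18, adjusted p = 0.377).

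Glucose transporters, hexokinases and the next enzymes had a median of -0.08 over 13 tested genes, 5 positive and 8 negative, with 0 called by edgeR. SLC2A4, the insulin-responsive transporter, had 10.1 and 6.26 CPM in parental cells, against 3.77 and 4.21 in C4K13A and 4.17 in C5K13A (-1.01 ± 0.27, adjusted p = 0.239), and DESeq2 called it lower. SLC2A12 had 18.8 and 5.43 CPM in parental and 2.73 to 6.44 CPM in K13A libraries, which overlapped (-1.47 ± 0.52, adjusted p = 0.364 by edgeR). Its value was -0.32 without parental library 1 and -2.10 without parental library 2.

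The thioredoxin and glutaredoxin system was measured in all 22 listed genes, 12 positive and 10 negative with a median of 0.10 and 0 called. PRDX5, a peroxiredoxin, had 233 and 161 CPM in parental cells, against 96.9 and 127 in C4K13A and 167 in C5K13A (-0.60 ± 0.25, adjusted p = 0.447 by edgeR). MSRB2, a mitochondrial methionine sulfoxide reductase, had 19.5 and 17.8 CPM in parental and 12.1, 12.7 and 15.9 CPM in K13A libraries (-0.46 ± 0.19, adjusted p = 0.443).

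The NEDD4-family ligases, which alpha-arrestins recruit, had a median of -0.10 over 8 tested genes (3 positive, 5 negative, 0 called). NEDD4L had 337 and 347 CPM in parental cells, against 214 and 257 in C4K13A and 305 in C5K13A (-0.40 ± 0.18, adjusted p = 0.464 by edgeR). WWP1 had 66.3 and 86.9 CPM in parental and 85.4 to 106 CPM in K13A libraries (0.32 ± 0.18, adjusted p = 0.547). Other arrestin-fold genes had a median of -0.02 over 6 tested, 2 positive and 4 negative, with 0 called. The beta-arrestin gene ARRB2 had 47.2 and 48.6 CPM in parental cells, against 29.4 and 27.7 in C4K13A and 41.7 in C5K13A (-0.54 ± 0.20, adjusted p = 0.386 by edgeR). VPS26B, a retromer subunit, had 84.5 and 95.9 CPM in parental and 91.5 to 110 CPM in K13A libraries (0.16 ± 0.16, adjusted p = 0.747).

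FOXO-responsive genes had a median of -0.19 over 11 tested, 2 positive and 9 negative. IRS2, the insulin receptor substrate, had 39.0 and 16.8 CPM in parental cells, against 5.77 and 3.04 in C4K13A and 4.88 in C5K13A. All K13A libraries were below both parental ones, and the fitted difference of -2.61 ± 0.39 missed the threshold (adjusted p = 0.0596 by edgeR); DESeq2 called it lower. IRS2 passed in 5 of 14 alternatives, and its value was -1.88 without parental library 1 and -3.09 without the other parental library. In C4K13A alone it was called (-2.66 ± 0.45, adjusted p = 0.0494), though not in the fit without the C5K13A library. BCL6, a transcriptional repressor, had 89.8 and 95.4 CPM in parental and 61.2, 65.4 and 69.4 CPM in K13A libraries (-0.50 ± 0.14, adjusted p = 0.265).

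Subunits and activators of the energy sensor AMPK, which phosphorylates TXNIP, had a median of -0.00039 over 10 tested genes, with 5 positive, 5 negative and 0 called. The catalytic subunit gene PRKAA1 had 80.6 and 79.0 CPM in parental and 89.1 to 98.6 CPM in K13A libraries (0.22 ± 0.14, adjusted p = 0.609 by edgeR), and STRADA had 2.09 and 1.24 CPM in parental and 0.981 to 1.18 CPM in K13A libraries (-0.59 ± 0.37, adjusted p = 0.598). Inflammasome genes, which TXNIP has been linked to in immune cells, were close to undetected. Their summed level was at most 1.04 CPM in any library, CASP1 and AIM2 had 0 counts in every library, and 0 of 4 tested were called. NLRP3 had 0.0590 to 0.327 CPM and NLRC4 0.141 to 0.354 CPM over the 5 libraries.

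**Figure D5:**
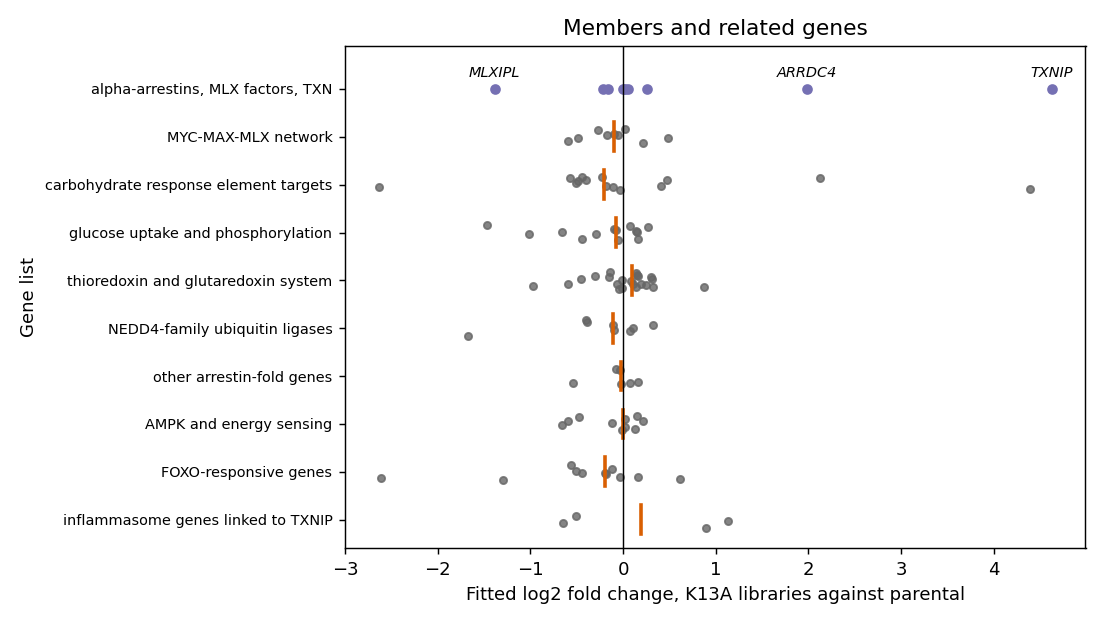
Fitted log2 fold change in K13A against parental libraries for the 9 detected genes of the family and its regulators (top row) and for tested genes of 9 related lists (1 dot a gene, orange bar the list median). TXNIP at 4.63 and ARRDC4 at 1.98 stand to the right of every list median. ARRDC4 does not stand to the right of every list gene. GCKR (4.396) and THRSP (2.124), from the lists, lie above ARRDC4 and below TXNIP. No dot in the 9 lists was called by edgeR.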

How the data were processed

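Per the labels' protocols, column-purified total RNA was DNase-treated, RiboErase removed its ribosomal RNA, and an Illumina HiSeq read the libraries. The authors deposited raw read counts per Ensembl gene ID, as whole numbers. STAR 2.5 and featureCounts 1.4.6-p5 (Subread) are named in the submitters' processing notes, beside bcl2fastq. Build, annotation, strand setting and multi-mapping are not given in these sources. GENCODE v29 (GRCh38) named 55297 of 58812 IDs. Groups came from the sample titles.

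All genes were fitted with edgeR 4.0.16 under R 4.3.3 (TMM after filterByExpr, glmQLFit and glmQLFTest, Benjamini-Hochberg threshold 0.05). All K13A against parental used 2 groups (3 residual degrees of freedom); comparisons by clone used 3 groups (2). SE is the fold change over the root of F. Levels per kilobase used the union of annotated exons, and likeness used log2(CPM + 0.5). Alternatives were upper-quartile and RLE factors, a filter at 5 CPM or none, DESeq2 1.42.0, limma-voom (limma 3.58.1), a 3-group fit, summed C4K13A libraries, a covariate splitting libraries at 200 CPM of mitochondrial ribosomal RNA, a replicate block and each library left out. The fits were tested on simulated data. Members, lists and alternatives were chosen with earlier results of these data known. Named genes were the 10 members, HOXB13, per list the called genes (up to 4) or else the 2 with the smallest p, and the 5 protein-coding genes most like TXNIP and ARRDC4. One of these is not reported here. POLR3GL, VPS37D, GFPT1, THRSP and marker genes were named after their values were seen.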

Additional observations from a re-analysis of the deposited data

How the results depend on the processing

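Over the alternatives with all libraries kept, TXNIP and ARRDC4 were the members called in K13A against parental libraries with RLE or upper-quartile factors, DESeq2, limma-voom, the 3-group fit and the ribosomal RNA covariate, and MLXIPL was added without a filter (3). The count was 0 with the filter at 5 CPM and with summed C4K13A libraries, and ran from 0 to 2 with a library left out. With a library left out it ran from 2 to 3 for C4K13A and from 1 to 2 for C5K13A against parental. Of the related genes 8 were called without a filter, 5 by DESeq2, 1 in the 3-group fit and 1 with the ribosomal RNA covariate (IRS2 both times), and 0 to 1 with a library left out. No member was called between the clones in any of the 10 alternatives (lowest adjusted p = 0.370). The signs of TXNIP, ARRDC4, TXN and MLXIP stayed positive and those of ARRDC2, ARRDC3 and MLXIPL negative in every alternative fit of all K13A libraries; ARRDC1 was positive in 5 of 14 and MLX in 9 of 14. With the replicate number as a block, 3 members were called in C4K13A (MLXIPL added), and 885 genes against 159 in all. Same-numbered libraries deviated together with r = 0.26 across genes, but 2 pairs and labels that name no shared batch do not show that the numbers pair the libraries. Counts of 33 to 194 limit MLXIPL, and 1 library limits C5K13A. Members were chosen from these libraries, so their calls against parental libraries carry no evidence of their own. The share of all genes called is not given for several alternatives, the fit without a filter among them. Calls under those settings are therefore not read as results about the related genes or MLXIPL.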
